A study of Mus musculus with 8 samples.

Results

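The genes described here are 37 genes of carbohydrate use in muscle: the enzymes of glycolysis, the enzymes and regulators of glycogen, the glycerol phosphate shuttle and the transporters that carry lactate across the cell membrane. They were taken by gene name from a table of 54091 genes, and all 37 were found. RNA had been sequenced from white quadriceps, the pale portion of the thigh muscle, rich in fast-twitch fibres. The mice were males aged 11 to 14 weeks that had eaten a high fat diet, labelled 60%, for 7 days. Knockout replicates 5 to 8 (4 libraries) were of mice with CKM Cre, labelled as Acot2 knockout in muscle, and control replicates 1 to 4 (4 libraries) of Loxp/Loxp mice with no Cre named. Acot2 encodes a mitochondrial thioesterase that splits long-chain acyl-CoA into fatty acid and coenzyme A. CKM is the muscle creatine kinase gene, whose promoter drives Cre in skeletal and heart muscle fibres, so that blood vessel, connective tissue and immune cells keep Acot2. Since the labels name Cre in the knockouts alone, Cre and the loss of Acot2 cannot be told apart.

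Acot2 itself had 325, 273, 256 and 354 normalized counts in knockout replicates 5 to 8, against 2179, 3348, 4165 and 2166 in control replicates 1 to 4, a log2 difference, knockout minus control, of -3.24 ± 0.20 (SE; adjusted p = 4.72e-06, limma). A normalized count is the number of reads of a gene divided by a size factor of its library. Reads numbered 55284004 to 74996039 per knockout library and 70275624 to 109101263 per control library. All 12 marker genes of fast glycolytic fibres were present in every library, and they summed to 11101395 to 12513436 normalized counts in the knockouts and 9622911 to 11781180.0 in the controls. The 9 markers of slow fibres summed to 25635 to 83383 in the knockouts and 18810.0 to 98584 in the controls. Markers of macrophages summed to 11898 to 19108 in the knockouts and 7579 to 11690.0 in the controls, with 8 of 8 estimates above 0. Those of fibro-adipogenic progenitors, a connective tissue cell, summed to 174661 to 231762 in the knockouts and 135301 to 174240.0 in the controls, with 7 of 7 above 0. Neither sum overlapped between the groups, but gene by gene most markers did. Only Adgre1 and C1qa of the macrophage list and Clec3b and Gsn of the other did not overlap. Gsn, the most abundant of its list, had 108121 to 122192 in the knockouts and 76373 to 104808 in the controls. Pdgfra had 1587 to 1786.5 in the knockouts and 1341 to 1863 in the controls. No gene of either list passed the test or was at 0 in any library, and the part of these cells in the results was not tested. Control replicates 3 and 4 stood apart from the other 6 libraries. On the first principal component of 15657 genes, with 34.5% of the variance, they lay at 55.2 and 56.1 and the others between -38.6 and 0.56. In these libraries the 3897 genes with the shortest exons had median deviations of -0.29 and -0.32 on the log2 scale, while these genes deviated by 0.11 to 0.17 in the knockouts and by 0.058 and 0.063 in control replicates 1 and 2. Knockout replicate 8 held heart transcripts: Myl7, an atrial myosin light chain, had 1124 normalized counts there and at most 4.10 in any other library. The 10 heart markers summed to 1293, 1911, 1300.0 and 12989 in knockout replicates 5 to 8, against 1071 to 1572 in the controls. The share of mRNA from mitochondrial DNA was 2.30% to 7.09% in the knockouts and 6.15% to 10.5% in the controls. The labels do not say whether libraries stand for single mice, and a p-value here speaks for the spread between libraries, which may be technical.

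Fast-twitch fibres burn glucose and stored glycogen in short bursts of work. Glycolysis turns glucose into pyruvate, and lactate dehydrogenase then turns pyruvate into lactate, which leaves the fibre through proton-coupled carriers. Glycogen is built by glycogen synthase and the branching enzyme, and it is cut by glycogen phosphorylase, which phosphorylase kinase switches on when calcium or adrenaline rises. The glycerol phosphate shuttle hands electrons from cytosolic NADH to the respiratory chain. Muscle carries its own isoforms of many of these enzymes, encoded by genes apart from those used in most other tissues.

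None of the 37 genes differed between knockout and control at an adjusted p under 0.05. All 37 passed the filter of a mean normalized count of at least 10, and limma called 0 of them, against 1 of 15657 genes tested (0.00639%), which was Acot2. At an unadjusted p under 0.05 there were 6 of 37 (16.2%), against 26.9% of all genes tested, and limma voom on recovered reads called 0, with 8 at an unadjusted p under 0.05. At an adjusted p under 0.1 there were 2 of 37 (5.41%), against 12% of all genes tested. The knockout and control values did not overlap in 4 of 37 (10.8%), against 13.1% of all genes tested. These were 2 higher in the knockouts, against 6.06% of all genes, and 2 lower, against 7.06%. Estimates were above 0 in 19 of 37 (51.4%), against 50.3% of all genes tested, and below 0 in 18. The median log2 difference of the 37 was 0.0020 and that of all genes tested was 0.0026. None of these shares was tested against that of all genes. The 4 genes whose groups did not overlap were Pgam2 and Ldha, higher in every knockout library, and Phkb and Ppp1r3a, lower in every knockout library. The count of 0 rests on the weight given to single libraries: Pgam2 and Ppp1r3a passed when control replicate 1 or control replicate 2 was left out, and under weights for sample quality, fits in which 1201 to 2048 genes passed.

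**Figure D1:**
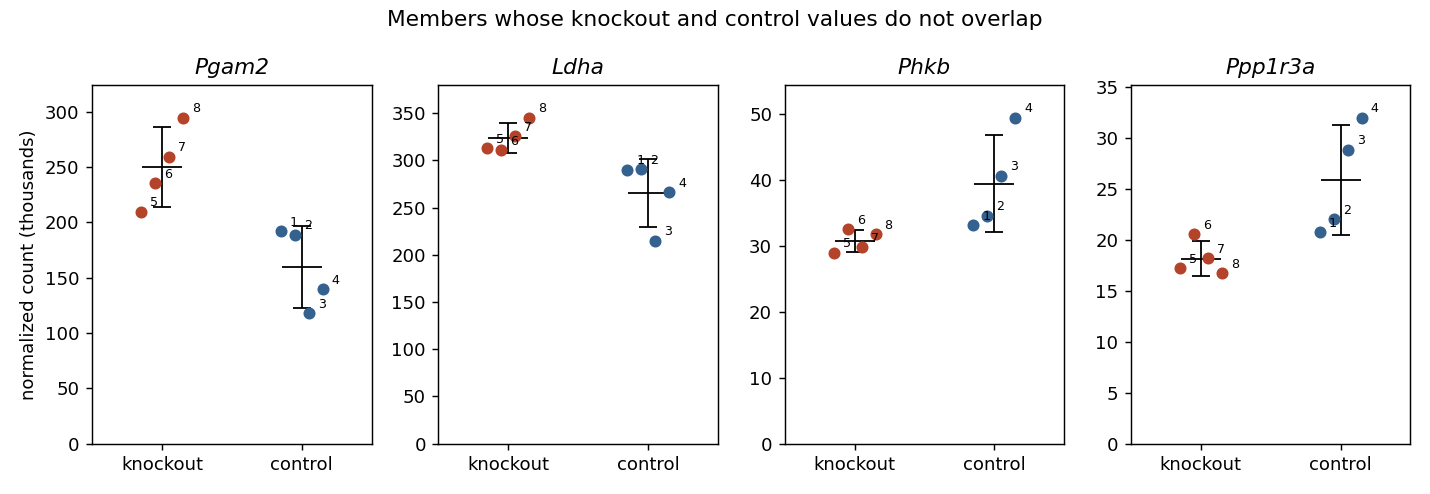
Normalized counts, divided by 1000, of Pgam2, Ldha, Phkb and Ppp1r3a, by library, with knockouts (red) left of controls (blue) and the replicate number beside each point. Horizontal bars are means and error bars SD over 4 libraries; Pgam2 is lowest in control replicates 3 and 4, and Phkb and Ppp1r3a are highest there.

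Pgam2 and Ldha were the clearest of the higher estimates. Pgam2 (chr11:5801640-5803733, minus strand, GRCm38) encodes the muscle form of phosphoglycerate mutase, which moves the phosphate group of phosphoglycerate in lower glycolysis. It had 209573, 235080.3, 259269.8 and 294579 normalized counts in knockout replicates 5 to 8, against 192033, 188917, 117597 and 139469.5 in control replicates 1 to 4. The lowest knockout lay above the highest control, and the lowest values of all were those of control replicates 3 and 4. The log2 difference was 0.67 ± 0.17 (SE; adjusted p = 0.0796, limma), while exact permutation of the libraries (two-sided) gave p = 0.0286, which is the floor for 4 against 4. Removing the trend on length and GC gave 0.32 (adjusted p = 0.121), and leaving out control replicates 3 and 4 gave 0.38 (limma, adjusted p = 0.606). Ldha (chr7:46841475-46855627, plus strand) encodes the muscle-type subunit of lactate dehydrogenase. It had 312846, 310492, 325680.0 and 345301 normalized counts in knockout replicates 5 to 8, against 289980.2, 290644, 214883 and 266485 in control replicates 1 to 4. Control replicate 3 was the lowest library, and control replicates 1 and 2 lay nearest to the knockouts. The log2 difference was 0.29 ± 0.12 (SE; adjusted p = 0.152, limma), and exact permutation of the libraries (two-sided) gave p = 0.0286. Removing the trend on length and GC gave 0.23 (adjusted p = 0.211), and leaving out control replicates 3 and 4 gave 0.16 (limma, adjusted p = 0.705).

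Ppp1r3a and Phkb were the clearest of the lower estimates, and both act on glycogen. Ppp1r3a (chr6:14713977-14755274, minus strand) encodes the muscle subunit that brings protein phosphatase to glycogen, where the phosphatase activates glycogen synthase. It had 17181, 20526, 18193 and 16697 normalized counts in knockout replicates 5 to 8, against 20703, 22020.1, 28797 and 31970.5 in control replicates 1 to 4. Knockout replicate 6 almost reached control replicate 1, and control replicates 3 and 4 were the highest. The log2 difference was -0.49 ± 0.14 (SE; adjusted p = 0.081, limma), and exact permutation of the libraries (two-sided) gave p = 0.0286. Removing the trend on length and GC gave -0.32 (adjusted p = 0.0966), and leaving out control replicates 3 and 4 gave -0.24 (limma, adjusted p = 0.623). Phkb (chr8:85840959-86061376, plus strand) encodes the beta subunit of phosphorylase kinase. It had 29026, 32586, 29809 and 31809 normalized counts in knockout replicates 5 to 8, against 33148, 34647, 40712 and 49525 in control replicates 1 to 4. Here too the gap between the groups was small, and control replicates 3 and 4 were the highest libraries. The log2 difference was -0.34 ± 0.13 (SE; adjusted p = 0.124, limma), and exact permutation of the libraries (two-sided) gave p = 0.0286. Removing the trend on length and GC gave -0.17 (adjusted p = 0.301), and leaving out control replicates 3 and 4 gave -0.14 (limma, adjusted p = 0.716).

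Levels ran from the most abundant transcripts of the muscle to rare ones. Ranked by count among all genes, Aldoa was 8th, Eno3 18th, Gapdh 19th and Pygm 20th, while Hk1 was 7087th, Pfkp 8086th and Slc2a1 8402nd. Together the 37 took 6.57%, 6.20%, 6.73% and 6.84% of all normalized counts in knockout replicates 5 to 8, against 6.40%, 6.19%, 5.38% and 6.34% in control replicates 1 to 4. Control replicate 3 had the lowest share and the groups overlapped. Levels of different genes were compared per kilobase of annotated exon. Aldoa, the muscle aldolase, led with levels, in normalized counts per kb, of 488161 ± 40815 in the knockouts and 427056 ± 60541 in the controls (SD, n = 4 each). The muscle enolase Eno3 stood at 284906 ± 29742 in the knockouts and 249072 ± 31546 in the controls. Pgam2 stood at 297173 ± 43086 in the knockouts and 189886 ± 43907 in the controls, below Eno3 in the controls and level with it within the spread in the knockouts. The muscle glycogen phosphorylase Pygm came next at 116778 ± 14538 in the knockouts and 141722 ± 17789 in the controls. Gapdh, Pfkm, Ldha, Tpi1 and Pkm made up the next tier, with means of 64605 to 105094 normalized counts per kb in the knockouts and 58183 to 109004 in the controls. At the other end were Hk1 and Pfkp, with 82.3 and 41.2 normalized counts per kb in the knockouts and 98.0 and 38.2 in the controls. The order depends on the length used. Per kb of the longest transcript, the control means were 802556 for Aldoa, 276942 for Eno3 and 189886 for Pgam2, and Ldha at 146280.0 passed Gapdh at 136976.

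The muscle isoform held nearly all of the transcript in most enzyme families. Shares were computed per kb of exon within 16 families of related genes. Among phosphofructokinases, which commit sugar to glycolysis, the muscle gene Pfkm held 99.7% in the knockouts and 99.8% in the controls, leaving little for the liver-type Pfkl and the platelet-type Pfkp. Pgam2 held 99.9% in the knockouts and 99.8% in the controls of its family, over the widely expressed Pgam1. Eno3 held 99.5% in the knockouts and 99.5% in the controls, over Eno1 and the neuronal Eno2. The muscle forms Pygm and Gys1 of glycogen phosphorylase and synthase held 99.8% in the knockouts and 99.9% in the controls for Pygm, and 99.8% in the knockouts and 99.8% in the controls for Gys1. Phka1 and Phkg1, the muscle alpha and gamma subunits of phosphorylase kinase, held 99.4% in the knockouts and 99.5% in the controls for Phka1, and 98.9% in the knockouts and 98.9% in the controls for Phkg1. Aldoa and Fbp2 also held over 99% of their families in every library.

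Other families were mixed. Pfkfb3, which makes and breaks an activator of phosphofructokinase, held 66.7, 59.8, 56.8 and 30.2% in knockout replicates 5 to 8, against 62.9, 63.6, 72.4 and 61.9% in control replicates 1 to 4, with Pfkfb1 and Pfkfb4 holding most of the rest. Knockout replicate 8 stood far below the other libraries, and there Pfkfb1 led with 39.5%. Hk2, the insulin-responsive hexokinase, held 89.8% ± 0.708 in the knockouts and 91.6% ± 0.991 in the controls (SD, n = 4 each). Hk1 held 2.26% in the knockouts and 2.46% in the controls. Ldha held 90.3% ± 1.83 in the knockouts and 89.7% ± 3.87 in the controls (SD, n = 4 each), with the rest from the heart-type subunit gene Ldhb. Of the lactate carriers, Slc16a3, which serves lactate export, held 86.8% ± 2.89 in the knockouts and 87.9% ± 2.68 in the controls (SD, n = 4 each), and Slc16a1, which also serves uptake, held most of the rest. Among glucose transporters, the insulin-responsive Slc2a4 held 97.5% ± 0.212 in the knockouts and 97.1% ± 0.355 in the controls (SD, n = 4 each) over Slc2a1 and Slc2a3. Of the glycerol phosphate dehydrogenases, the cytosolic Gpd1 held 79.2% ± 3.16 in the knockouts and 79.7% ± 1.87 in the controls (SD, n = 4 each). The mitochondrial partner Gpd2 held 17.2% in the knockouts and 16.9% in the controls. Length matters for Hk1: per kb of the longest transcript it held 4.08% in the knockouts and 4.43% in the controls. In all 16 families the leading gene was the same with the longest transcript or with no length.

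No family's leading share passed after adjustment over the 16 families (exact two-sided permutation tests, adjusted p = 0.305 to 0.971). The smallest p that this permutation test can give, 0.0286, cannot pass for 1 family alone after that adjustment. The test therefore cannot decide whether a single family's share differed. The glycogen-targeting subunits of protein phosphatase came nearest. In that family Ppp1r3c led, with 78.9, 81.5, 81.2 and 81.8% in knockout replicates 5 to 8, against 76.0, 77.1, 72.8 and 72.2% in control replicates 1 to 4. The groups did not overlap, and the difference was 6.33 percentage points (exact two-sided permutation p = 0.0286, adjusted p = 0.305). Ppp1r3a made up nearly all of the rest, with 20.3, 18.1, 18.3 and 17.6% in the knockouts, against 23.4, 22.4, 26.6 and 27.2% in the controls. The annotated transcripts are 6965 bases for Ppp1r3a and 2725 for Ppp1r3c. Once the trend on length and GC was removed, a step chosen for this ratio after its values were seen, the log2 ratio of Ppp1r3a to Ppp1r3c was -0.66 in the knockouts and -0.35 in the controls, and the groups overlapped. Hk2 and Pgam2 had the next smallest p, with share differences of -1.76 and 0.0790 percentage points (exact two-sided permutation p = 0.0571 and adjusted p = 0.305 for each).

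**Figure D2:**
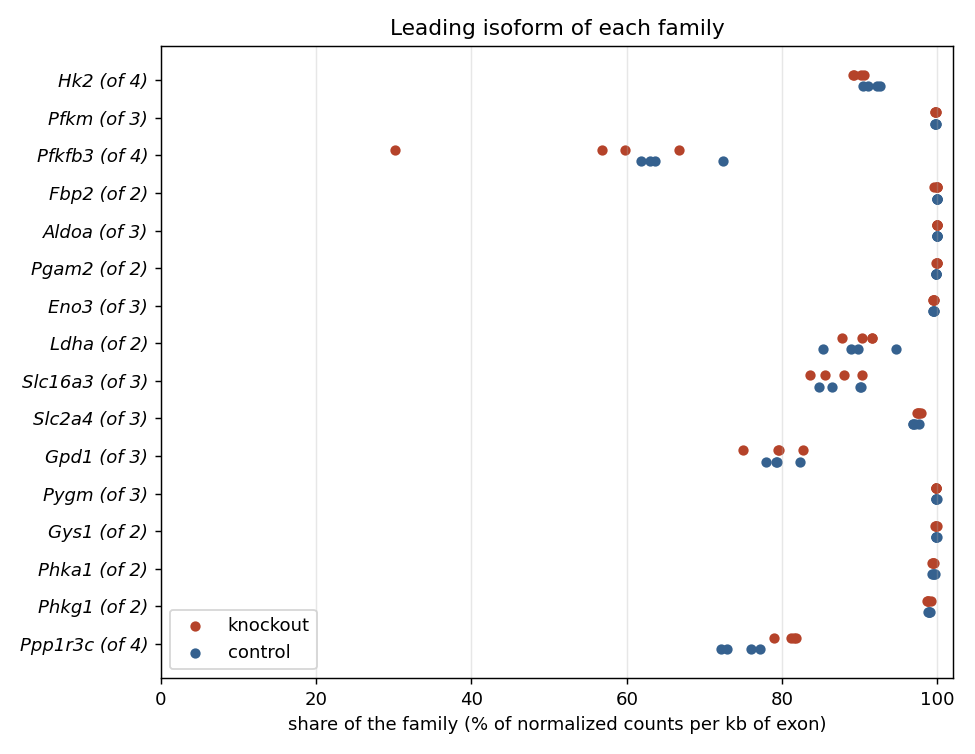
Share of the leading gene in each of 16 families, in percent of the family's normalized counts per kb of exon, with 4 knockout (red, upper row) and 4 control (blue, lower row) libraries per family. Most muscle isoforms sit near 100%, while Pfkfb3 spreads from 30.2% in knockout replicate 8 to 72.4% in control replicate 3, and Ppp1r3c is higher in all 4 knockouts.

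Promoter sequences are shown for a pair of muscle isoforms beside their widely expressed partners, and for Ldha and Ppp1r3a, whose groups did not overlap. They are the 250 bases before the annotated start, 5′ to 3′ on the gene's strand, from RefSeq on GRCm38.p6, where 36 of the 37 genes matched (not Gpd1). Where a gene has several starts, the one farthest upstream is shown. Capitals mark 3 motifs. CAGCTG is a form of the E-box that myogenic factors bind and reads the same on both strands. The core of the hypoxia response element, ACGTG, was marked on either strand. A form of the frame of a MEF2 site, CTA and TAG with 4 bases between, also reads the same on both strands. Other forms of the MEF2 site were not marked or counted.
Pgam2 (chr11:5803797-5804046, minus strand): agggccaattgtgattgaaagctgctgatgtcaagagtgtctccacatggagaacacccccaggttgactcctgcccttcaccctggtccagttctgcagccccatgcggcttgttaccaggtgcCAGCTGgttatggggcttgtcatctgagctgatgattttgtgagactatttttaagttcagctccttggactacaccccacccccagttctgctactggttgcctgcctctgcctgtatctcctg
Pgam1 (chr19:41911621-41911870, plus strand): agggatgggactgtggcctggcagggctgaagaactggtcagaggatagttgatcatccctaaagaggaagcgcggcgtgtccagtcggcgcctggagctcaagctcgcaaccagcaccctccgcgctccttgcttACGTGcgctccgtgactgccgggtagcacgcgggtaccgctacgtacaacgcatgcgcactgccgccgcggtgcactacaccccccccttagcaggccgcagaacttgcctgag
Eno3 (chr11:70656926-70657175, plus strand): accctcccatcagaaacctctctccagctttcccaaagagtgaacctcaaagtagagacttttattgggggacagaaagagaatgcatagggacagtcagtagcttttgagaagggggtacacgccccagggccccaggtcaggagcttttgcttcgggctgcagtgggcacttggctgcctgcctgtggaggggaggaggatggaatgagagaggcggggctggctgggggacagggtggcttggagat
Eno1 (chr4:150236458-150236707, plus strand): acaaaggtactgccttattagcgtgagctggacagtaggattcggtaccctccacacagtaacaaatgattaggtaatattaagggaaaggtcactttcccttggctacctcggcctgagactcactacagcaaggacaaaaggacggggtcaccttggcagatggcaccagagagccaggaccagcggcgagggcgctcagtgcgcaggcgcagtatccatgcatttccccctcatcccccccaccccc
Ldha (chr7:46845554-46845803, plus strand): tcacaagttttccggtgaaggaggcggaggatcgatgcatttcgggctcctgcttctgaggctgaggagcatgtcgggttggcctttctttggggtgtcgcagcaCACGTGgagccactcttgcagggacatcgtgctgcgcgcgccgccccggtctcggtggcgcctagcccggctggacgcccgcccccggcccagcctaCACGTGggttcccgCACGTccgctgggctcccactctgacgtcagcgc
Ppp1r3a (chr6:14755275-14755524, minus strand): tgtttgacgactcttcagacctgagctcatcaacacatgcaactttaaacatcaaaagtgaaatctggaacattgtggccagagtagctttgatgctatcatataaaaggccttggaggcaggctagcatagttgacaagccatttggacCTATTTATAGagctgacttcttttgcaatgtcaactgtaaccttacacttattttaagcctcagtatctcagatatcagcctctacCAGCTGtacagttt
Pgam2 and Eno3 had few CG pairs in these windows, with 1 in Pgam2 and 3 in Eno3, against 22 in Pgam1 and 9 to 21 over the 3 starts of Eno1. Other muscle isoforms ranged widely: Phkg1 had 1, Pygm 4, Fbp2 5, Gys1 11, Phka1 19, Hk2 25 and Slc16a3 29, and Ldha 9 and 25 at its 2 starts. Among the genes for glycogen-bound proteins, Ppp1r3a had 1, Ppp1r3c 20, Stbd1 24 and Epm2a 30. The median was 14 over the 52 windows of these genes and 6 over all 32851 windows. The Pgam2 and Ppp1r3a windows each held 1 CAGCTG. The Pgam2 window held ctatttttaa, a form of the MEF2 site that ends in TAA and was not marked. The Ppp1r3a window also held the marked form of the MEF2 frame. It held TATAAA at 2 places, 1 on the gene's strand and 1 on the other strand within this frame. The Ldha window held CACGTG at 2 places, each of which contains ACGTG on both strands, and 1 further ACGTG. The Eno3 and Eno1 windows held none of the marked letters. Over all starts, ACGTG was found in 17 of 36 genes (47.2%), against 18.5% of 27025 genes. CAGCTG was found in 11 (30.6%), against 14.7%. The marked form of the MEF2 frame was found in 3 (8.33%), against 3.7%, and TATAAA on either strand in 2 (5.56%), against 14.3%. CACGTG, which contains ACGTG, was found in 6 (16.7%), against 6.86%. Per window rather than per gene, ACGTG was found in 38.5%, against 16.6% of all windows. These genes have more annotated starts and more CG pairs per window than the rest, and the matches describe letters, not binding.

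Glucose entry and phosphorylation had 3 of 3 estimates below 0, and none passed. Hk2, the hexokinase that traps glucose in muscle, had 18116, 20625, 20054 and 19465 normalized counts in knockout replicates 5 to 8, against 20634, 20484, 22528 and 24219 in control replicates 1 to 4. Knockout replicate 5 was the lowest library and control replicate 4 the highest, and the groups overlapped. The log2 difference was -0.17 ± 0.10 (SE; adjusted p = 0.316, limma). The basal transporter Slc2a1 had 414 to 455 in the knockouts, against 373 to 674 in the controls. The ubiquitous hexokinase Hk1 had 606 to 739 in the knockouts, against 722 to 894 in the controls. Their log2 differences were -0.24 and -0.25 (limma, adjusted p = 0.375 and 0.221). In Slc2a1 control replicate 1 was the highest library and control replicate 4 the lowest, and its difference was -0.51 without control replicates 3 and 4 and -0.32 with the trend removed. That of Hk2 was -0.073 without control replicates 3 and 4 and -0.078 with the trend removed. For glucose entry and phosphorylation, the median log2 difference was -0.24 over all libraries, -0.30 without control replicates 3 and 4 and -0.12 with the trend on length and GC removed.

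All 6 estimates of upper glycolysis were above 0, though that of Pfkm was below 0 with the trend on length and GC removed, and none passed. For upper glycolysis, the median log2 difference was 0.16 over all libraries, 0.073 without control replicates 3 and 4 and 0.17 with the trend on length and GC removed. Gpi1, the glucose phosphate isomerase, had 61371, 49825, 60342 and 54139 normalized counts in knockout replicates 5 to 8, against 60204, 52313, 43868 and 53106 in control replicates 1 to 4. Pfkm had 324913, 350923, 341091 and 335812 in the knockouts, against 341777, 316379, 296834 and 351288 in the controls. In both genes the groups overlapped, with log2 differences of 0.11 and 0.053 (limma, adjusted p = 0.579 and 0.782). Aldoa, which cleaves fructose bisphosphate, had 1519957, 1255211, 1492086 and 1416893 in the knockouts, against 1425562, 1273704, 1001964 and 1271411 in the controls. Control replicate 3 was its lowest library, the groups overlapped, and the log2 difference was 0.20 ± 0.14 (SE; adjusted p = 0.353, limma). Tpi1, the triose phosphate isomerase, had 198392, 200243, 219459 and 247830.5 in the knockouts, against 202238, 199412, 145806 and 175936 in the controls. Control replicates 3 and 4 were again lowest, and the log2 difference was 0.27 ± 0.13 (SE; adjusted p = 0.215, limma). The minor isoform Pfkl had 1348 to 1739 in the knockouts, against 775 to 1532 in the controls, with control replicate 4 lowest. Its log2 difference of 0.36 was 0.10 without control replicates 3 and 4. Pfkp differed by 0.11. The difference of Aldoa was 0.073 without control replicates 3 and 4 and 0.046 with the trend removed, that of Tpi1 0.10 without control replicates 3 and 4 and 0.13 with the trend removed, and that of Gpi1 0.0026 without control replicates 3 and 4 and 0.22 with the trend removed.

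Of the enzymes that set the level of the bisphosphate activator of phosphofructokinase, taken with Fbp2, 2 had estimates above 0 and 2 below. None passed. For fructose bisphosphate control, the median log2 difference was -0.10 over all libraries, -0.12 without control replicates 3 and 4 and -0.091 with the trend on length and GC removed. Pfkfb3, a bifunctional enzyme that mainly makes this activator, had 24409, 17384, 15484 and 5103 normalized counts in knockout replicates 5 to 8, against 21351, 22388, 31732 and 20493 in control replicates 1 to 4. Knockout replicate 8 was by far the lowest library and control replicate 3 the highest, and knockout replicate 5 lay above 3 of the controls. The log2 difference was -0.80 ± 0.45 (SE; adjusted p = 0.287, limma), the largest SE of the 37 genes, and leaving out knockout replicate 8 gave -0.33 (adjusted p = 0.331). Pfkfb4, a related enzyme, had 3705, 3005, 2797 and 3037 in the knockouts, against 4002, 3533, 3669 and 3874 in the controls. Only knockout replicate 5 reached the controls, and the log2 difference was -0.27 ± 0.11 (SE; adjusted p = 0.143, limma). A further relative, Pfkfb1, had 3272 to 3732 in the knockouts, against 3202 to 3683 in the controls, at a log2 difference of 0.065. Fbp2 is the muscle fructose bisphosphatase, which runs the phosphofructokinase step backwards. It had 3905, 4593, 4901 and 8308 in the knockouts, against 3768, 4156, 3784 and 5639 in the controls. Its value in knockout replicate 8 was the highest, and the difference of 0.28 ± 0.21 (SE; adjusted p = 0.39, limma) was 0.056 without that library. The part of the heart transcripts of knockout replicate 8 in these values was not tested.

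Lower glycolysis had 5 of 7 estimates above 0, though that of Eno3 was below 0 with the trend on length and GC removed and that of Gapdh turned under quantile normalization, and none passed. For lower glycolysis, the median log2 difference was 0.20 over all libraries, 0.11 without control replicates 3 and 4 and 0.068 with the trend on length and GC removed. Gapdh, which makes the first NADH of the pathway, had 467821, 359167, 474779 and 435646 normalized counts in knockout replicates 5 to 8, against 495078, 418102, 376162 and 512715 in control replicates 1 to 4. The groups overlapped, and the log2 difference was -0.050 ± 0.14 (SE; adjusted p = 0.838, limma). Pgk1, the kinase that makes the first ATP, had 59371, 69904, 78119 and 100329 in the knockouts, against 66441, 62064, 52604 and 86348 in the controls. Knockout replicate 8 was highest and control replicate 3 lowest, and the log2 difference was 0.20 ± 0.17 (SE; adjusted p = 0.475, limma). Eno3 had 456703, 446716, 526508 and 551881 in the knockouts, against 462212, 448266, 351971 and 470096 in the controls. Pkm, pyruvate kinase, had 304714, 329198, 311678 and 346764 in the knockouts, against 307408, 291431, 251238 and 313824 in the controls, and its splice forms cannot be told apart in counts per gene. For both, control replicate 3 was lowest and the groups overlapped, with log2 differences of 0.20 and 0.15 (limma, adjusted p = 0.346 and 0.404). The difference of Pgk1 was 0.23 without control replicates 3 and 4 and 0.068 with the trend removed, and that of Eno3 0.12 without control replicates 3 and 4 and -0.036 with the trend removed. The minor isoforms Eno1 and Pgam1 differed by 0.25 and -0.19. In Eno1 all 4 knockouts, at 7216 to 8277, lay above 3 of the controls, which ran from 5731 to 7493, and its difference was 0.089 without control replicates 3 and 4 and 0.26 with the trend removed. That of Pgam1 was -0.14 without control replicates 3 and 4 and -0.38 with the trend removed.

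Lactate genes had 4 of 4 estimates above 0, though that of Slc16a3 turned under other scalings and that of Ldhb without control replicate 4, and none passed. For lactate, the median log2 difference was 0.20 over all libraries, 0.079 without control replicates 3 and 4 and 0.13 with the trend on length and GC removed. Slc16a3 had 32853, 24533, 32624 and 28111 normalized counts in knockout replicates 5 to 8, against 31955, 26774, 25432 and 33782 in control replicates 1 to 4. The groups covered nearly the same range, and the log2 difference was 0.0020 ± 0.13 (SE; adjusted p = 0.995, limma). Slc16a1 had 2911 to 3976 in the knockouts, against 2925 to 3779 in the controls, at a difference of 0.13 (limma, adjusted p = 0.525). Ldhb had 13687, 20713, 16530.2 and 15107 in the knockouts, against 15674, 17294, 17531 and 7081 in the controls. Control replicate 4 had by far the lowest value, and knockout replicate 6 the highest. The difference of 0.27 ± 0.26 (SE; adjusted p = 0.531, limma) became -0.044 without control replicate 4. The slow fibre markers, 9 genes such as Myh7 and Tnni1, summed to 25635, 83383, 35094 and 48655 in knockout replicates 5 to 8, against 36594, 34031, 98584 and 18810.0 in control replicates 1 to 4. They too were lowest in control replicate 4, and they were highest in control replicate 3 and knockout replicate 6. None of the 9 was at 0 in any library, and their part in the Ldhb values was not tested. In whole muscle, fewer fibres of a type and less RNA per fibre cannot be told apart.

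Both genes of the glycerol phosphate shuttle had estimates below 0, and neither passed. For glycerol phosphate shuttle, the median log2 difference was -0.17 over all libraries, -0.084 without control replicates 3 and 4 and -0.18 with the trend on length and GC removed. Gpd1 had 35034, 26339.6, 31794 and 30545 normalized counts in knockout replicates 5 to 8, against 37379.5, 31522, 32188 and 39985 in control replicates 1 to 4. Gpd2, the enzyme of the inner mitochondrial membrane, had 13403, 16082, 14981 and 14382 in the knockouts, against 14673, 14903, 16639 and 19749.5 in the controls. In both genes control replicate 4 was the highest library and the groups overlapped. The log2 differences were -0.19 ± 0.12 (SE; adjusted p = 0.33, limma) and -0.16 ± 0.12 (SE; adjusted p = 0.407, limma).

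The genes of glycogen synthesis had 3 of 3 estimates below 0, though that of Gbe1 was above 0 when the trend was removed and control replicates 3 and 4 were left out, and none passed. For glycogen synthesis, the median log2 difference was -0.10 over all libraries, -0.023 without control replicates 3 and 4 and -0.028 with the trend on length and GC removed. Ugp2, which makes the UDP-glucose that feeds glycogen, had 45069.6, 53589.9, 55162 and 52399.8 normalized counts in knockout replicates 5 to 8, against 49714, 55411, 57091 and 56079 in control replicates 1 to 4. Gys1, the muscle glycogen synthase, had 31226, 31557, 33558 and 30261 in the knockouts, against 32269, 31984, 36651 and 35012 in the controls. The branching enzyme Gbe1 had 3340.1, 4812, 4483 and 4029.9 in the knockouts, against 3725, 4673, 5347 and 4592 in the controls. Each pair of groups overlapped. The log2 differences were -0.084, -0.10 and -0.14 (limma, adjusted p = 0.64, 0.535 and 0.534).

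Glycogen breakdown had 4 of 4 estimates below 0, though that of Phkg1 was above 0 with the trend on length and GC removed, and none passed. For glycogen breakdown, the median log2 difference was -0.29 over all libraries, -0.10 without control replicates 3 and 4 and -0.17 with the trend on length and GC removed. Pygm, which cuts glucose units from glycogen, had 442678, 367426, 358993 and 334071 normalized counts in knockout replicates 5 to 8, against 466946, 385319.7, 447801 and 524178 in control replicates 1 to 4. Knockout replicates 6, 7 and 8 lay below every control and knockout replicate 5 among them, and the log2 difference was -0.28 ± 0.13 (SE; adjusted p = 0.195, limma). Phka1, the regulatory alpha subunit of phosphorylase kinase, had 54421, 66275, 57988 and 52049 in the knockouts, against 57190.0, 61427, 74703 and 97836 in the controls. Control replicates 3 and 4 held its highest values, and the difference of -0.31 ± 0.16 (SE; adjusted p = 0.223, limma) was -0.045 without them. Phkg1, the catalytic subunit, had 36615, 34054, 34482 and 32833 in the knockouts, against 36618, 35273, 33721 and 36890.5 in the controls. Its groups covered nearly the same range, at -0.047 ± 0.098 (SE; adjusted p = 0.786, limma).

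Of the 4 genes for proteins that dock on glycogen, Ppp1r3c and Stbd1 had estimates above 0 and Ppp1r3a and Epm2a below, though that of Ppp1r3c turned under other scalings, and none passed. For glycogen targeting and quality, the median log2 difference was -0.11 over all libraries, -0.016 without control replicates 3 and 4 and -0.15 with the trend on length and GC removed. Ppp1r3c, whose product also brings phosphatase to glycogen, had 26121, 36146, 31557 and 30414 normalized counts in knockout replicates 5 to 8, against 26314, 29636, 30877 and 33153 in control replicates 1 to 4. The groups overlapped at 0.046 ± 0.12 (SE; adjusted p = 0.832, limma). Stbd1, a protein that ties glycogen to membranes, had 3869, 4572, 5283 and 7822 in the knockouts, against 4119, 4466, 3597 and 5354 in the controls. Knockout replicate 8 was the highest library, and the difference of 0.26 ± 0.19 (SE; adjusted p = 0.385, limma) was 0.065 without it. Epm2a, or laforin, which removes phosphate from glycogen, had 7763, 8632, 7452 and 6387 in the knockouts, against 8364, 8609.6, 10113 and 9251 in the controls. Knockout replicate 6 reached into the control range, and the log2 difference was -0.27 ± 0.12 (SE; adjusted p = 0.159, limma).

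**Figure D3:**
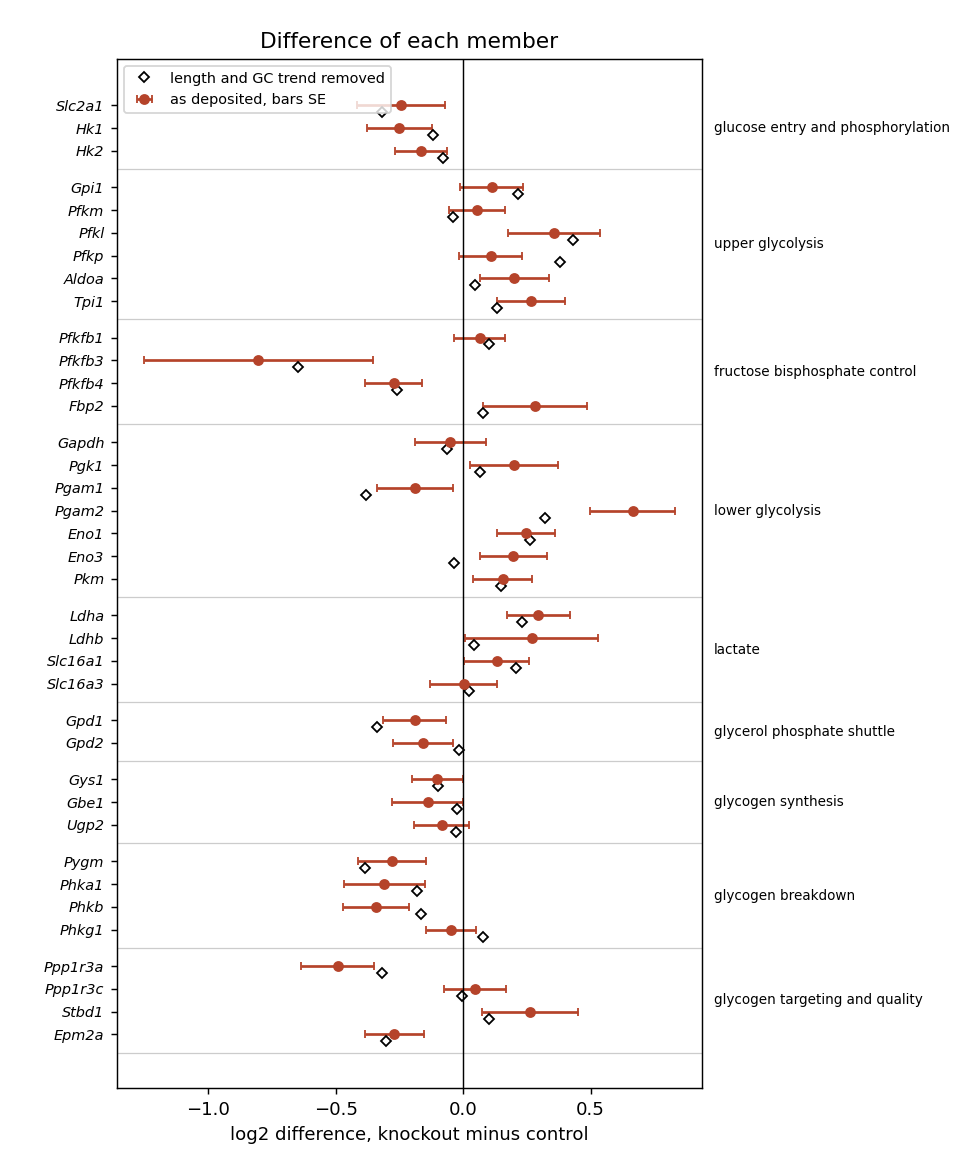
Log2 difference, knockout minus control, of each of the 37 genes by role, with SE from limma (red) and the estimate after a length and GC trend was removed (open diamonds). Upper glycolysis genes lie right of 0 and glycogen breakdown genes left of it, except Pfkm and Phkg1 once the trend was removed, and none passed at an adjusted p under 0.05.

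The differences varied with transcript length. Over the 37 genes, Spearman's correlation between the log2 difference and the longest annotated transcript was -0.66, and over 15581 genes tested it was -0.44. All genes of a library share its depth and its RNA, so these values are a description. Of the 18 genes with transcripts shorter than the median of 2879 bases, 13 had estimates above 0, with a median of 0.20. Of the 18 longer ones, 5 did, with a median of -0.16. Pgam2, at 840 bases, has the shortest transcript and the highest estimate, while Ppp1r3a at 6965 and Phka1 at 6115 bases are among the longest. Without control replicates 3 and 4 this correlation was -0.49 over the 37 and -0.18 over all genes, and with the trend removed it was -0.33 over the 37 and -0.11 over all. The trend had been fitted to exon length, all exons of a gene together. On that length the correlation was -0.47 over the 37 and -0.41 over all genes, and with the trend removed -0.066 over the 37 and -0.043 over all. The part of length in any single difference was not tested.

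**Figure D4:**
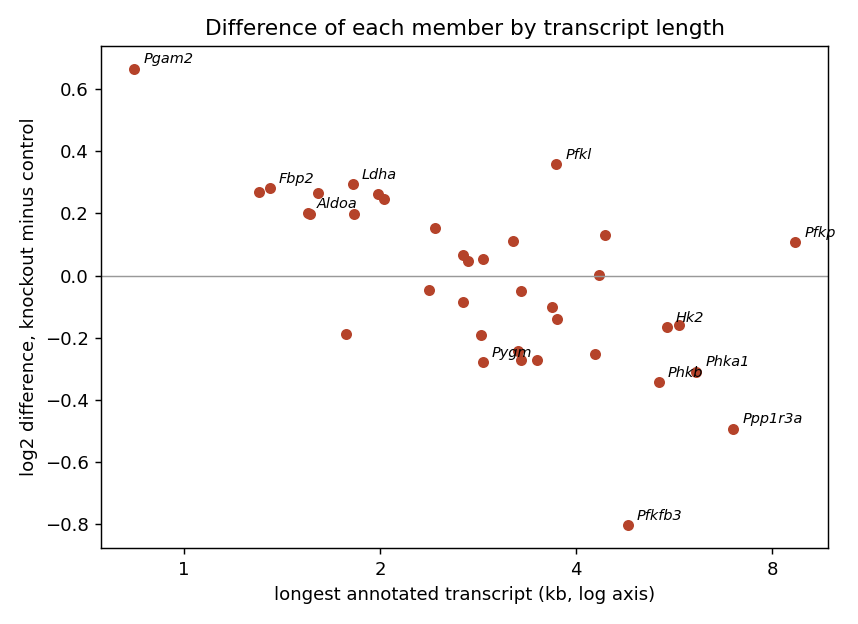
Log2 difference, knockout minus control, of each of the 37 genes against the length of its longest annotated transcript in kb (log axis). Of the 18 genes shorter than the median, 13 lie above 0, with Pgam2 highest, and of the 18 longer ones 5 do, among them Pfkl and Pfkp.

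**Figure D5:**
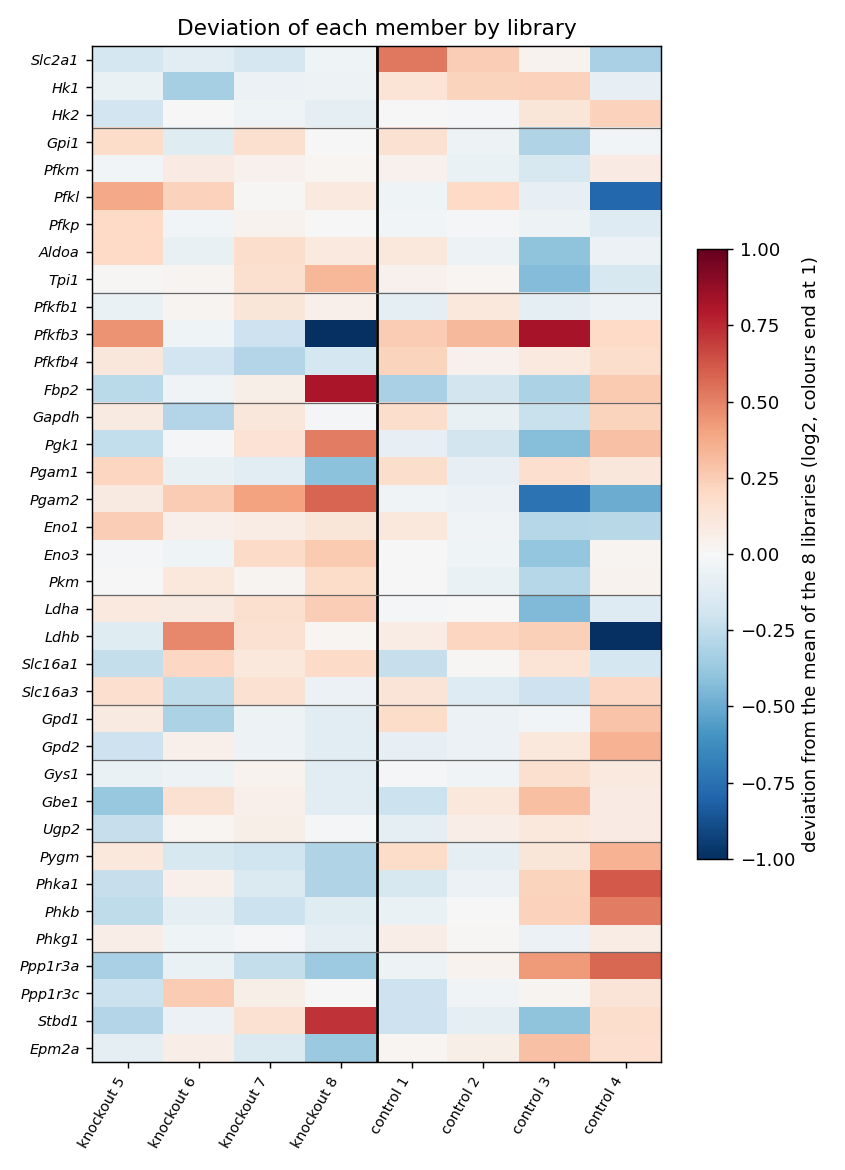
Deviation of each of the 37 genes from its mean over the 8 libraries (log2 scale), with knockouts left of controls and genes in the order of their roles. Control replicates 3 and 4 are low for Pgam2 and high for Phka1, Phkb and Ppp1r3a, and knockout replicate 8 is low for Pfkfb3 and high for Fbp2 and Stbd1.

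Other genes of the pathway also split between higher and lower estimates. Of 75 further genes of sugar and glycogen handling, 71 passed the filter and none passed the test, with 36 estimates above 0 and a median of 0.0078. At an unadjusted p under 0.05 by limma there were 19, of which 9 were higher and 10 lower, or 26.8% against 26.9% of all genes tested. Groups did not overlap in 11 of 71 (15.5%), against 13.1% of all genes: 2 were higher in the knockouts (2.82%, against 6.06%) and 9 lower (12.7%, against 7.06%). The glucose transporter Slc2a12 had normalized counts of 503 to 573 in the knockouts, against 655 to 913 in the controls. Slc2a3, another glucose transporter, had 627 to 948 in the knockouts, against 1028 to 1299.5 in the controls. In both, every knockout lay below every control, with log2 differences of -0.56 and -0.54 (limma, adjusted p = 0.0796 and 0.081). Slc25a12, a mitochondrial carrier of aspartate and glutamate, differed by -0.36 ± 0.11 (SE; adjusted p = 0.081, limma), and Prkaa2, a catalytic subunit of the energy sensor AMPK, by -0.59 ± 0.18 (SE; adjusted p = 0.081, limma). The low-count lactate carrier Slc16a7 had 57.4 to 101.8 in the knockouts, against 29.5 to 72.3 in the controls, at a difference of 1.00 (limma, adjusted p = 0.0914). Six4, a homeobox transcription factor, differed by -0.39 (limma, adjusted p = 0.0989). Slc2a4, through which insulin drives glucose into muscle, had 34818, 32251, 32148 and 29239.9 normalized counts in knockout replicates 5 to 8, against 38524, 33465, 33428 and 36001 in control replicates 1 to 4. Its groups overlapped at -0.14 ± 0.10 (SE; adjusted p = 0.408, limma). Gyg, the protein on which glycogen chains are started, had 17312 to 26248 in the knockouts, against 24658 to 29039.9 in the controls, at -0.32 (limma, adjusted p = 0.136). Bsg, the partner that carries lactate transporters to the membrane, had 55572 to 63505 in the knockouts, against 43934 to 58069 in the controls, at 0.23 (limma, adjusted p = 0.224). Too low to test were Fbp1, Pgk2, Pklr and Ppp1r3g.

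Counts of some genes could be shared with copies elsewhere in the genome. Pseudogenes of Gapdh named in the table numbered 292, and together they held at most 0.542% of the Gapdh count in any library. For Ldha, Pkm, Tpi1, Pgk1, Eno1, Aldoa, Gpi1 and Ldhb pseudogenes held at most 0.502% of the parent's count. The highest share was that of Pgam1, at 1.85%. How reads that fit both a gene and its copy were counted is not given, so these shares do not show how many such reads there were. Exons of another gene on the same strand cover 15.3% of the annotated Pkm exons and 10.2% of those of Pfkm. This makes these counts uncertain, and the share of reads concerned is not known. On the other strand, such overlap reached 13.0% for Gpd1, 11.5% for Gpi1 and 9.68% for Phkg1, and whether strand was used in counting is not given.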

How the data were processed

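The authors deposited a table of log2 values per gene and library. Per the submitters' processing notes, the tools were STAR, HTSeq, DESeq2, cutadapt and FastQC, and the build GRCm38; the sources used here give no version, setting or strand. With the log2 undone and 1 subtracted, every value up to 1000 reads was, to within 0.1, a whole multiple of the worth of 1 read in that library (0.679 to 1.29), and these reads were used for depth and voom. A gene not detected is limited to 3 reads, or a normalized count of 2.04 to 3.87; this covers counting error only. Replicates differed from each other by a chi-square of 35.2 to 272 per gene, and each library was counted as a sample.

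The main test was limma (version 3.58.1, R 4.3.3), with trend and robust eBayes, on log2(normalized count + 1) of the 15657 genes whose mean was 10 or more, with Benjamini-Hochberg adjustment over all; this scale understates changes of low genes. Shares of families were tested with exact permutation over libraries. Scripts were tested on simulated data. Other steps used scipy 1.17.1, pandas 2.3.3, numpy 2.4.6 and matplotlib 3.10.9 under Python 3.11.15. Positions and lengths came from GENCODE M21 (GRCm38), which need not be the annotation used for counting. The trend on exon length and GC was a loess curve per library with a span of 0.5, over 15576 genes. The genes and lists were chosen with earlier results of these data known. Values in every library are given for the leading isoform or single gene of each step, for genes whose groups did not overlap and for the 6 of smallest p. Of the further pathway genes, the 6 of smallest p, Slc2a4, Gyg and Bsg are named, and some results are not reported here. Alternatives were other pseudocounts, filters, scalings, variance models and lengths, libraries left out, and, added after seeing the data, the trend removed together with control replicates 3 and 4 left out.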

Additional observations from a re-analysis of the deposited data

Results flagged for a closer look

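A value was looked for that lay far from the 3 other libraries of its group (Dixon's test at 95%), in 106 groups of 4, of which chance flags about 1 in 20. There were 5. Hk1 was lowest in knockout replicate 6, at 606 normalized counts, where the other knockouts had 730.1 to 739. Pfkfb3 was highest in control replicate 3, at 31732 normalized counts, and so was its share of its family there, at 72.4%. The share of Fbp2 was lowest in knockout replicate 5, at 99.6%, and that of Aldoa in the same library, at 99.9939%.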

How the results depend on the processing

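Under 21 alternatives of the fit and 37 genes, 748 of 777 estimates kept their direction and their side of the threshold, 6 passed it and 23 changed sign. The 6 were Pgam2 (0.71 to 0.76) and Ppp1r3a (-0.59 to -0.50) in the fits with sample quality weights, without control replicate 1 and without control replicate 2, each of which called 2 of the 37. Over all genes these called 1201, 1722 and 2048, while leaving out any other single library gave 1 or 2. The same count was 2 with no filter, 7 without the trend and robust options and 4 once the trend on length and GC was removed; the cause was not tested. Among the 37 the count past the threshold ran from 0 to 2 over the libraries left out singly, and their median from -0.062 to 0.035, the lowest without control replicate 3.

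The median of the further pathway genes was -0.042 with equal totals, -0.038 with quality weights, -0.046 without control replicates 3 and 4, -0.041 without these and knockout replicate 8, -0.027 with the trend removed, -0.032 with both, and -0.048 to 0.0019 with single libraries left out.

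Sign changes fell on estimates that passed no threshold in either form. With the trend removed, Pfkm became -0.039, Eno3 -0.036, Phkg1 0.076, Ppp1r3c -0.0053 and Bsg -0.037. With control replicates 3 and 4 also left out, Ldhb was -0.082, Gpd2 0.018, Gbe1 0.0048 and Bsg -0.024. Without control replicates 3 and 4 alone, Ldhb was -0.013, and without these and knockout replicate 8 Phka1 was 0.0022. Quantile normalization gave 0.11 for Gapdh, -0.063 for Slc16a3 and -0.034 for Ppp1r3c, and equal totals -0.048 for Slc16a3 and -0.0044 for Ppp1r3c. Leaving out single libraries, or control replicates 3 and 4 with knockout replicate 8, Gapdh ran from -0.13 to 0.039, Ldhb from -0.044 to 0.39, Slc16a3 from -0.066 to 0.088, Phka1 from -0.41 to 0.0022 and Ppp1r3c from -0.030 to 0.15.

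No family's leading share passed under any of 12 alternatives. Exact permutation can give no p under 0.0286 there, and its floor is higher without control replicates 3 and 4. A single family at that floor cannot pass alone after adjustment over 16. In percentage points, knockout minus control, single libraries left out gave -0.000984 to 0.000620 for Aldoa, -0.0348 to 0.0130 for Eno3, -0.828 to 2.30 for Ldha, -2.19 to 0.0389 for Slc16a3, -1.69 to 0.863 for Gpd1 and -0.0718 to 0.0303 for Gys1. Without control replicates 3 and 4 the values were 0.000426 for Aldoa, 0.00745 for Eno3 and 0.0391 for Phka1. No paired analysis was possible because knockout and control libraries share no replicate number. At 55284004 reads or more per library, the spread between libraries exceeds counting error and limits the comparison.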

Other observations

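The malate-aspartate shuttle, the other route by which cytosolic NADH reaches the respiratory chain, had both higher and lower estimates. These genes were chosen after their values were seen, and none passed at an adjusted p under 0.05. The cytosolic malate dehydrogenase Mdh1 had normalized counts of 53242 to 79379.7 in the knockouts, against 44129.9 to 65381 in the controls. Its mitochondrial partner Mdh2 had 75646 to 90616 in the knockouts, against 61299 to 79705 in the controls. Their log2 differences were 0.36 and 0.28 (limma, adjusted p = 0.154 and 0.161). The oxoglutarate carrier Slc25a11 had 25197 to 33539 in the knockouts, against 21492 to 29559.8 in the controls, at 0.30 (limma, adjusted p = 0.174). An aspartate and glutamate carrier, Slc25a12, had 23394 to 26665 in the knockouts, against 30640.5 to 36252 in the controls, the only one of the 4 whose groups did not overlap. The low-count Slc25a13, a related carrier of aspartate and glutamate, went the other way, and its groups overlapped. It had 64.0 to 112.3 in the knockouts, against 31.9 to 73.8 in the controls, at 0.65 (limma, adjusted p = 0.195). The cytosolic and mitochondrial aspartate aminotransferases Got1 and Got2 differed by -0.038 and -0.078. Their longest transcripts are 2122 bases for Mdh1, 1606 for Mdh2, 1711 for Slc25a11 and 6351 for Slc25a12. After removal of the trend on length and GC the 4 differences were 0.30, 0.24, 0.093 and -0.20.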
